A study of Mus musculus with 19 samples.

Results

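The 6 miRNA genes Mir451a, Mir144, Mir142, Mir223, Mir143 and Mir145a were followed through 19 small RNA libraries of mouse sperm, as marker miRNAs of red blood cells, white blood cells and smooth muscle. They were chosen by name, out of 2198 annotated miRNA hairpins, for what is known of their cells, and their reads are those of 20 to 24 nt that match the gene's hairpin in sense, allowing 1 mismatch. The question was how much RNA of these other cells each sperm library holds, by sequencing method and by exposure. Wild-type C57BL/6J males, 8 weeks old at the start, received corn oil or the plasticizer dicyclohexyl phthalate (DCHP) by oral gavage for 4 weeks. Sperm came from the cauda epididymis and was strained and treated with a somatic cell lysis buffer before RNA extraction. Traditional RNA-seq was made of 5 control and 5 DCHP libraries, and PANDORA-seq, in which the RNA is first treated with the demethylase AlkB and with T4 polynucleotide kinase, of 4 control and 5 DCHP libraries. The sample titles give control or treated status, while the treatment field of the labels gives DCHP for all 19 libraries. The study calls its sperm libraries biological replicates of mice, while the labels do not say which animals a library came from, so p-values measure the spread between these libraries.

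A miRNA is cut from a hairpin precursor, and 1 or both arms of the hairpin, 5p and 3p, can remain as the mature miRNA of about 22 nt. The mature strand guides an Argonaute protein to mRNAs through its seed, bases 2 to 8. miR-451a and miR-144 come from 1 transcript that is abundant in erythroid cells, and miR-451a is cut by Argonaute 2 rather than by Dicer, so that its reads extend into the loop. miR-142 is found throughout blood cells and miR-223 mainly in neutrophils and other myeloid cells. miR-143 and miR-145a come from 1 cluster that is best known from smooth muscle and also active in other mesenchymal cells. None of them is known as a miRNA of sperm alone, and mature sperm carries little cytoplasm.

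The 4 blood cell miRNAs are shown because their reads, not only their counts, identify them. The mature sequences are those of RefSeq on GRCm38.p6, written 5′ to 3′ with the seed in capitals. Mir144 lies at chr11:78073005-78073070 and Mir451a at chr11:78073170-78073241, both on the plus strand. Mir142 lies at chr11:87756864-87756927 on the plus strand, inside a long non-coding RNA gene, and Mir223 at chrX:96242817-96242926 on the plus strand.
miR-451a: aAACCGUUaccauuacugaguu
miR-144-5p: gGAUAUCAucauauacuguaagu
miR-144-3p: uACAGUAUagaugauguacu
miR-142a-5p: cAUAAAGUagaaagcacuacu
miR-142a-3p: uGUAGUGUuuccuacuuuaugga
miR-223-5p: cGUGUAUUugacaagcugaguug
miR-223-3p: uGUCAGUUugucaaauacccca
No 2 of these 7 mature miRNAs share a seed. The reads are given as in the files, with T for U, for the form of each gene that was sequenced most in the traditional libraries, the looped form of miR-451a and the form of Mir142 at the annotated start.
miR-451a, 20 nt: aAACCGTTaccattactgag
miR-451a, 25 nt: aAACCGTTaccattactgagtttag
miR-144-3p, 19 nt: tACAGTATagatgatgtac
Mir142 5p, 19 nt: cCCATAAAgtagaaagcac
Mir142 5p, 20 nt: cATAAAGTagaaagcactac
miR-223-3p, 22 nt: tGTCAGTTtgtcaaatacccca
The 20 nt form made up 49.7% of the 5108.5 Mir451a reads of all lengths in traditional RNA-seq, and the 25 nt form, which ends 3 bases beyond the annotated end, made up 5.93%. All 10 traditional libraries held both forms. For Mir142 the commonest form, 35.6% of 6067 reads, began 2 bases before the annotated start and so carries another seed, CCATAAA. Reads with that start made up 56.1% of the Mir142 reads and reads with the annotated start 18.9%. In PANDORA-seq the same 2 starts held 8 and 1.5 of 11.5 Mir142 reads, where a read that also matches another hairpin counts in part.

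Levels are given as reads per 1000000 miRNA reads (RPM). As miRNA reads were taken the 20 to 24 nt reads on those 453 hairpins that had 50% or more of their reads in this length window. Mir144 and Mir142, with shorter reads, are not among the 453. They numbered 959446 to 8146852 per library in traditional RNA-seq but 5816 to 46900 in PANDORA-seq, although total reads ranged from 21588335 to 52099239 and from 25432054 to 56506344. A library's lowest detectable level, taken as 3 reads, was therefore 0.368 to 3.13 RPM in traditional RNA-seq and 64.0 to 516 RPM in PANDORA-seq. These limits and all intervals cover counting error only, since the reads carry no molecular identifiers.

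In traditional RNA-seq, all 6 genes were detected. Mir143 was by far the most abundant of them. Set against the miRNA total, which does not itself hold Mir144 and Mir142, the reads of the 6 genes came to 2.82% to 7.92%. Without Mir143, they summed to 420 to 1167 RPM. The 4 blood cell genes together held 76.1 to 687 RPM.

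Mir451a was detected in every traditional library. Its levels in control replicates 1 to 5 were 183, 365, 45.3, 42.4 and 62.9 RPM, and in DCHP replicates 1 to 5 they were 26.6, 55.2, 138, 87.8 and 61.2 RPM. The first 2 controls stood above all other traditional libraries, and the remaining controls lay within the range of the DCHP libraries. Mir144, from the same transcript, was read at 35.5, 41.2, 5.55, 2.97 and 7.76 RPM in controls and at 5.21, 0, 21.0, 9.92 and 5.10 RPM in DCHP libraries. Again the first 2 controls were highest, and DCHP replicate 2 had no read of 20 to 24 nt, which allows up to 3.13 RPM. The wider red blood cell list, which adds Mir486 and Mir3107, did not share this order. It summed to 1174 and 933 RPM in control replicates 1 and 2 and was highest in DCHP replicate 2, at 1479 RPM. Since 70.8% of the Mir144 reads in traditional RNA-seq were 15 to 19 nt long, the 20 to 24 nt window held 29.2% of them. In that window 89.2% of the reads were of the 5p arm, while 63.0% of the reads of all lengths began at the main 3p start. The levels of Mir144 are therefore mainly those of miR-144-5p and leave out the 19 nt 3p form shown above.

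Mir142 was read at 97.9, 263, 22.2, 8.18 and 18.1 RPM in control replicates 1 to 5. In DCHP replicates 1 to 5 it was at 21.9, 37.5, 58.6, 33.3 and 35.7 RPM. The same 2 controls were highest and the other 3 controls among the lowest. Mir223, the myeloid miRNA, did not share this order. Its levels were 18.8, 18.2, 22.8, 25.3 and 21.6 RPM in controls and 22.4, 19.8, 19.2, 34.5 and 49.0 RPM in DCHP libraries. Per miRNA read, control replicates 1 and 2 held the lowest levels of Mir223, and DCHP replicate 5 the highest. DCHP replicates 2 and 3 lay close above these controls, from only 19 and 43 reads. The rank of control replicate 2 depended on the denominator. Per total read, it lay above every traditional library but DCHP replicate 5, while control replicate 1 remained the lowest.

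**Figure D1:**
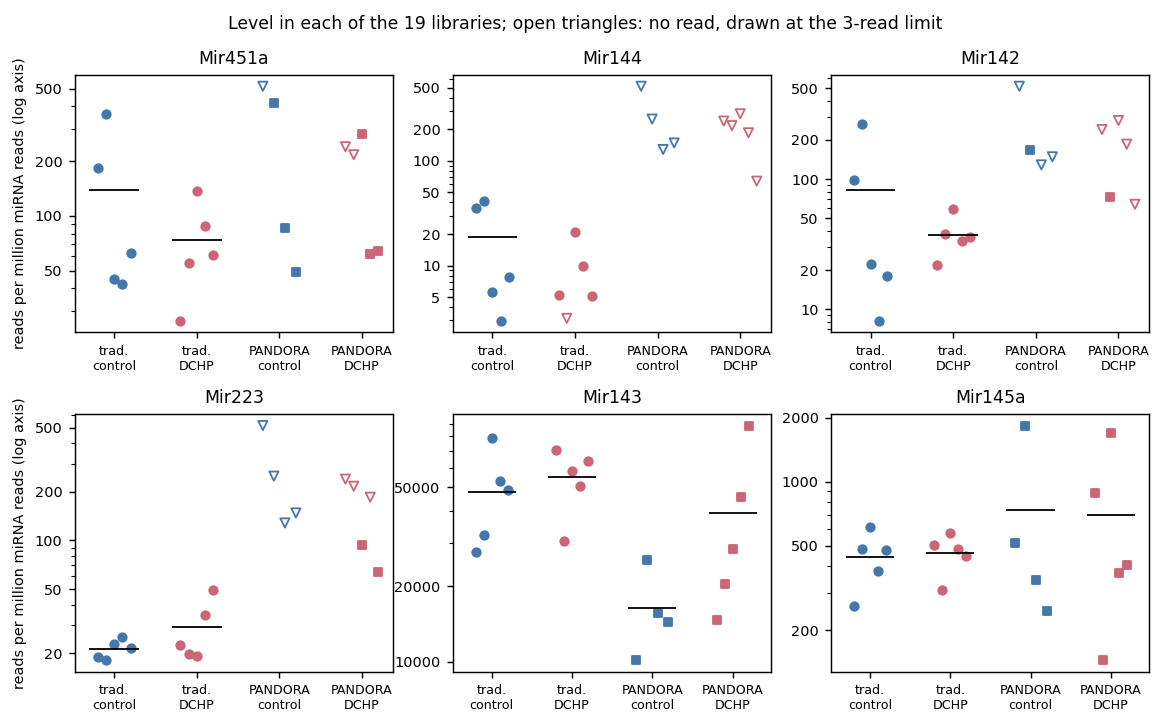
Reads per 1000000 miRNA reads (log axis) of the 6 genes in each library, by method and exposure; points are libraries, lines are means where every library had reads, and open triangles are libraries without a read, drawn at the level of 3 reads. Mir451a, Mir144 and Mir142 share 2 high traditional controls, and Mir144, Mir142 and Mir223 had no read in most PANDORA-seq libraries.

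The smooth muscle genes lie on the minus strand of chromosome 18, Mir145a at 61647825 to 61647894 and Mir143 at 61649196 to 61649258 (GRCm38). Mir143 was read at 27566, 32045, 78534, 52962 and 48946 RPM in traditional control replicates 1 to 5. In DCHP replicates 1 to 5 it was at 70755, 30477, 58186, 50577 and 63684 RPM. The lowest 3 libraries were control replicates 1 and 2 and DCHP replicate 2, so the controls highest in Mir451a were among the lowest in Mir143 per miRNA read. Per total read, control replicate 1 and DCHP replicate 2 remained the lowest traditional libraries in Mir143, while control replicate 2 did not remain low. Control replicate 2 then lay above every traditional library but control replicate 3 and DCHP replicate 5. Mir145a was far less abundant, at 261, 480, 611, 379 and 478 RPM in controls and 502, 307, 574, 484 and 447 RPM in DCHP libraries. The DCHP libraries lay within the range of the controls.

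Across the 10 traditional libraries, 15 pairs of these genes were correlated on the log2(level + 1) scale, and 1 further pair in PANDORA-seq, with permutation p-values adjusted over all 16. Mir451a and Mir142 rose and fell together (Pearson r = 0.895, permutation p = 0.00072, adjusted p = 0.0115; Spearman rho = 0.782, permutation p = 0.0109, adjusted p = 0.0870). Without control replicates 1 and 2, the 2 libraries farthest from the median of Mir451a, r was 0.647, and it was 0.974 within controls and 0.912 within DCHP libraries. For Mir451a and Mir144, r was 0.775 (permutation p = 0.00825, adjusted p = 0.0494; rho = 0.842, permutation p = 0.00374, adjusted p = 0.0598), and 0.513 without the same 2 libraries. Mir143 and Mir145a gave r = 0.772 (permutation p = 0.00926, adjusted p = 0.0494; rho = 0.733, permutation p = 0.0198, adjusted p = 0.105), which fell to 0.373 without the 2 farthest libraries, control replicate 1 and DCHP replicate 2. Mir144 and Mir142 had r = 0.667 (permutation p = 0.0359, adjusted p = 0.140). Their rho was 0.588 (permutation p = 0.0807, adjusted p = 0.143), and r was 0.903 without DCHP replicate 2 and control replicate 2. Within DCHP libraries r was 0.311 for this pair and 0.511 for Mir451a and Mir144, against 0.967 for each within controls. Thus 3 of 16 pairs had an adjusted Pearson p below 0.05 and 0 had an adjusted Spearman p below it. Levels share a denominator, so a library rich in 1 abundant miRNA holds less of all others RPM.

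Pairs of a blood cell gene with a smooth muscle gene, and of Mir223 with any other gene, went either way, and none of them had an adjusted p below 0.05. Mir451a and Mir143 had r = -0.64 (permutation p = 0.0438, adjusted p = 0.140; rho = -0.60, permutation p = 0.0738, adjusted p = 0.143), and without control replicates 1 and 2 r was -0.23. Mir451a and Mir223 had r = -0.33 (permutation p = 0.345, adjusted p = 0.613; rho = -0.59, permutation p = 0.0806, adjusted p = 0.143), and r was 0.040 without those 2 libraries. Mir142 and Mir223, both of white blood cells, had r = -0.33 (permutation p = 0.339, adjusted p = 0.613; rho = -0.65, permutation p = 0.0492, adjusted p = 0.143). Mir223 and Mir143 had r = 0.45 (permutation p = 0.19, adjusted p = 0.434; rho = 0.59, permutation p = 0.0803, adjusted p = 0.143).

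**Figure D2:**
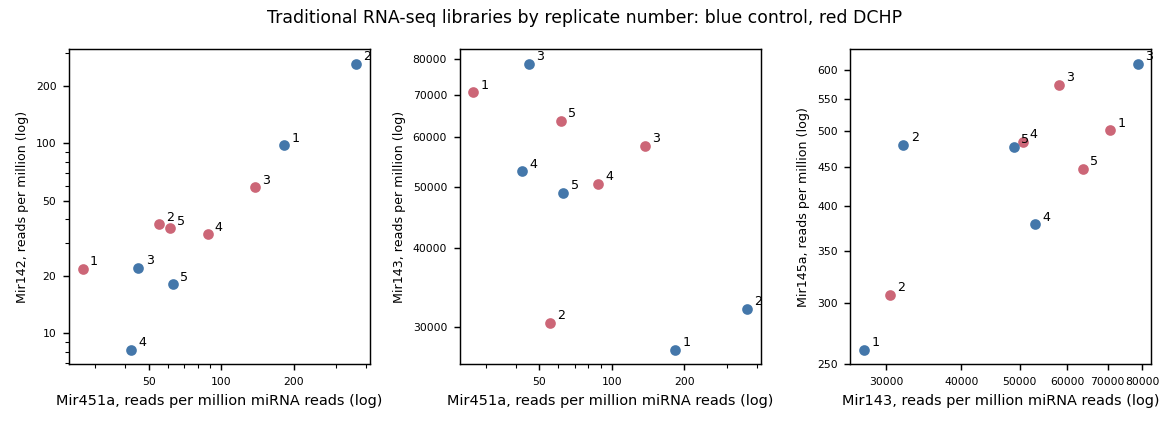
Levels of 3 pairs of genes in the 10 traditional RNA-seq libraries, in reads per 1000000 miRNA reads on log axes; numbers are replicates, blue is control and red is DCHP. Mir142 rises with Mir451a (r = 0.895), the 2 controls highest in Mir451a lie low in Mir143 on this scale, and Mir145a rises with Mir143 (r = 0.772).

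Other miRNAs moved with the 2 high controls. Mir126a, a marker of endothelium, was at 4122 and 7749 RPM in control replicates 1 and 2 and at 323 to 1767 RPM in the other 8 traditional libraries, while Mir126b, also of that list, had no reads of 20 to 24 nt. Mir122, the miRNA of hepatocytes, was at 240924 and 431833 RPM in the same 2 controls, and at 215635 and 127683 RPM in DCHP replicates 2 and 3, against 13794 to 44759 RPM elsewhere. The miRNA total of control replicate 2, at 8146852 reads, was also the largest. The part of any of these in the levels of Mir451a, Mir144 and Mir142 was not tested.

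Among the 139 hairpins with a mean of at least 100 RPM, those whose pattern over the 10 traditional libraries was most like that of Mir451a were Mir22 (r = 0.951), Mir194-1 (r = 0.942) and Mir29a (r = 0.941). For Mir142 they were Mir146 (r = 0.966), Mir26b (r = 0.961) and Mir29a (r = 0.954), and for Mir144 Mir101a (r = 0.819), Mir101b (r = 0.809) and Mir27b (r = 0.794). All of these 8 hairpins were highest in control replicate 2. Mir223 was most like Mir146b (r = 0.951), Mir429 (r = 0.931) and Mir200a (r = 0.847), of which the last 2 belong to the epithelial miR-200 family, and all 3 were highest in DCHP replicate 5. The white blood cell list that holds Mir142, Mir223 and Mir146b summed to 6499 RPM in that library and to 612 to 2145 RPM in the other 9. Mir146b alone gave 6067 RPM of that sum, Mir223 gave 49.0 RPM and Mir142, at 35.7 RPM, lay within the range of the other libraries. The sum of the list in PANDORA-seq DCHP replicate 5 was 9296 RPM against 480 to 1977 RPM in the other 8, and of its 436 reads 3 were of Mir223 and 0 of Mir142. Mir143 was most like Mir1839 (r = 0.844) and Mir1a-1 and Mir1a-2 (r = 0.843), which give the same mature miRNA, one of heart and skeletal muscle. The r of these with Mir143 over the 9 PANDORA-seq libraries were 0.627 and 0.375. Mir145a was most like Mir1839 (r = 0.810), Mir143 (r = 0.772) and Mir1a-1 (r = 0.659), with r of 0.068, 0.050 and -0.39 in PANDORA-seq. These are descriptions over libraries that share a denominator.

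None of the 6 genes was called changed by DCHP in traditional RNA-seq (edgeR's quasi-likelihood test with Benjamini-Hochberg adjustment, where a call needs an adjusted p under 0.1 and more than a 2-fold change). Of the 393 hairpins tested, 0, or 0%, were called, while 24 had an unadjusted p below 0.05. By DESeq2 0 were called as well. Mir451a was at 140 ± 139 RPM (SD, n = 5) in controls and 73.7 ± 41.9 (SD, n = 5) in DCHP libraries, a log2 fold change of -0.93 (SE 0.576, adjusted p = 0.808). Mir144 was at 18.6 ± 18.2 (SD, n = 5) and 8.24 ± 7.93 (SD, n = 5), with a log2 fold change of -1.15 (SE 0.765, adjusted p = 0.808). Mir142 was at 81.8 ± 107 (SD, n = 5) and 37.4 ± 13.3 (SD, n = 5), with a log2 fold change of -1.14 (SE 0.695, adjusted p = 0.808).

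These 3 values below 0 rested on control replicates 1 and 2. With both left out, a setting chosen after seeing the data, the log2 fold changes were 0.57 for Mir451a, 0.67 for Mir144 and 1.18 for Mir142 (adjusted p = 0.549, 0.653 and 0.392 by the same test). Leaving out control replicate 2 alone brought Mir142 to 0.039 and Mir451a to -0.17. The miR-223 gene was at 21.3 ± 2.92 RPM (SD, n = 5) in controls and 29.0 ± 12.8 (SD, n = 5) in DCHP libraries, a log2 fold change of 0.46 (SE 0.388, adjusted p = 0.815).

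For the smooth muscle genes, the DCHP and control means lay closer. Mir143 was at 48010.5 ± 20187 RPM (SD, n = 5) in controls and 54736 ± 15446 (SD, n = 5) in DCHP libraries, with a log2 fold change of 0.19 (SE 0.363, adjusted p = 0.951). Mir145a was at 442 ± 131 (SD, n = 5) and 463 ± 98.2 (SD, n = 5), with a log2 fold change of 0.067 (SE 0.312, adjusted p = 0.951). Both of these small differences took the opposite sign with TMM or DESeq2 scaling, and the median of all tested hairpins, 0.17 here, moved to -0.20 and -0.15.

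**Figure D3:**
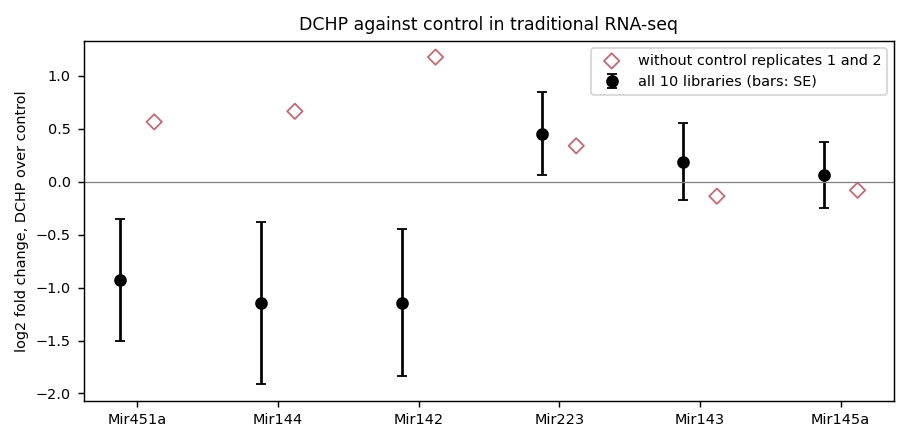
Log2 fold change of DCHP over control for the 6 genes in traditional RNA-seq; black points use all 10 libraries with bars of 1 SE, and open diamonds leave out control replicates 1 and 2. Mir451a, Mir144 and Mir142 change from below 0 to above 0 without those libraries.

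In PANDORA-seq the blood cell genes were nearly absent from the reads, as were most mature miRNA reads. Mir451a had 0, 5, 2 and 1 reads in control replicates 1 to 4 and 0, 0, 3, 1 and 3 reads in DCHP replicates 1 to 5. Mir142 had 2 reads in control replicate 2 and 1 read in DCHP replicate 2, and Mir223 had 1 read in DCHP replicate 3 and 3 reads in DCHP replicate 5. Mir144 had 0 reads of 20 to 24 nt in all 9 libraries. These counts cannot rank the libraries.

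Set against the few miRNA reads of these libraries, the counts leave wide intervals. Pooled, Mir451a was at 130 RPM (95% Poisson interval 56.3 to 257) in PANDORA-seq controls and at 69.9 RPM (28.1 to 144) in PANDORA-seq DCHP libraries. Pooled in the same way, it was at 227 RPM in traditional controls, 74.4 RPM in them without replicate 2, and 77.2 RPM in traditional DCHP libraries. For Mir144 and Mir223, 0 reads in the pooled controls allow up to 48.9 RPM when the limit is set at 3 reads. The upper end of the 95% Poisson interval is 60.1 RPM. Both limits lie above the mean levels of 18.6 and 21.3 in traditional controls, so a lower level in PANDORA-seq was not detectable at this depth. Mir223 in DCHP libraries was at 40.0 RPM (10.9 to 102) when pooled.

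The smooth muscle genes were read in all 9 PANDORA-seq libraries. Mir143 was at 10144, 25553, 15627 and 14467 RPM in control replicates 1 to 4 and at 14723, 20532, 28150.4, 45598 and 88400 RPM in DCHP replicates 1 to 5. DCHP replicates 3, 4 and 5 lay above all controls, and replicates 1 and 2 within their range. The means were 16448 ± 6512 (SD, n = 4) and 39481 ± 29711 (SD, n = 5), a 2.40-fold difference (log2 fold change 1.26, SE 0.516) that was not called (adjusted p = 0.684 by edgeR, exact permutation p = 0.111). Of 180 hairpins tested, 0% were called by edgeR and 0 by DESeq2, and 9 had an unadjusted p below 0.05. DCHP replicate 5 also had the most miRNA reads of the PANDORA-seq libraries. The epithelial miRNAs (Mir200a, Mir200b, Mir200c, Mir141 and Mir429) summed to 39481 and 38848 RPM in DCHP replicates 4 and 5, to 9832 to 18673 RPM in the other 3 DCHP libraries and to 9800.5 to 12544 RPM in controls, and their part in the level of Mir143 was not tested. Without 1 library at a time the log2 fold change ranged from 0.73 to 1.55.

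Mir145a had only 2 to 22 reads per PANDORA-seq library. It was at 516, 1837, 343 and 247 RPM in controls and at 880.2, 145, 1689, 371 and 405 RPM in DCHP libraries, with control replicate 2 and DCHP replicate 3 highest in their groups. Control replicate 2, with 22 of the 38 reads of the controls, stood far from the other 3 by Dixon's test. The log2 fold change of -0.10 (SE 0.646, adjusted p = 0.988 by edgeR) was smaller than its error, and its sign turned when 1 library was left out. It was 0.95 without control replicate 2, and it was also above 0 without DCHP replicate 2 (0.15) or DCHP replicate 4 (0.055). Over these 9 libraries, Mir143 and Mir145a had no call for correlation (r = 0.050, exact permutation p = 0.903, adjusted p = 0.903; rho = 0.17, exact p = 0.678, adjusted p = 0.734).

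Between the methods, Mir143 was called in control sperm. Its 4 PANDORA-seq libraries, at 10144 to 25553 RPM, all lay below the 5 traditional libraries, at 27566 to 78534. The difference was 0.343-fold (log2 fold change -1.54, SE 0.458, adjusted p = 0.0093 by edgeR). Of 343 hairpins tested, 49.9% were called and 4.96% were called lower in PANDORA-seq, and the median over all of them was 1.096 on the log2 scale. Most hairpins called higher had Gm names, such as Gm24187 (8.13) and Gm24105 (6.82). The share and median therefore do not describe the Mir-named hairpins alone. Leaving out 1 library at a time, the log2 fold change of Mir143 ranged from -1.84 to -1.29. In DCHP sperm, Mir143 ranged from 14723 to 88400 RPM in PANDORA-seq and from 30477 to 70755 in traditional RNA-seq and was not called (log2 fold change -0.47, SE 0.443, adjusted p = 0.437), where 43.9% of 328 hairpins were called. Without PANDORA-seq DCHP replicate 5, the log2 fold change was -1.01 (adjusted p = 0.0426), a call.

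Mir145a was called in neither exposure group, with log2 fold changes of 0.70 (SE 0.577, adjusted p = 0.366) in control and 0.51 (SE 0.486, adjusted p = 0.442) in DCHP sperm. Both signs rested on 1 PANDORA-seq library, since the value was -0.37 in control sperm without control replicate 2 and -0.076 in DCHP sperm without DCHP replicate 3. With 2 to 22 reads per PANDORA-seq library, Mir145a met the filter on low counts between methods only through the traditional libraries. The blood cell genes reached 10 reads in no PANDORA-seq library and so could pass the filter on low counts only through the traditional libraries. For them the ratio of pooled reads, PANDORA-seq over traditional RNA-seq per miRNA read, is given with its 95% counting interval and no test. For Mir451a it was 0.574 (0.248 to 1.13) in control and 0.906 (0.363 to 1.88) in DCHP sperm. For Mir142, from 2 and 1 PANDORA-seq reads, it was 0.211 (0.0256 to 0.764) and 0.266 (0.00672 to 1.49), and for Mir223 in DCHP sperm it was 1.26 (0.340 to 3.25). Traditional control replicate 2 held 2141 of the 2389.5 Mir142 reads of the traditional controls. Without that library, left out after seeing the data, the control ratio was 0.965 (0.116 to 3.53) for Mir142 and 1.75 (0.752 to 3.47) for Mir451a. Mir144 had 0 reads of 20 to 24 nt in PANDORA-seq, beside 5 reads of 15 to 19 nt.

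These comparisons depended on the denominator. Of the 20 to 24 nt reads on hairpins, 97.9% to 99.4% fell on hairpins of the miRNA total in traditional RNA-seq, but 11.2% to 53.2% in PANDORA-seq. Per total read, miRNA reads themselves were at 39551 to 156372 per 1000000 in traditional RNA-seq and 229 to 1063 per 1000000 in PANDORA-seq. On that scale the pooled ratio of Mir451a was 0.00291 (95% counting interval 0.00125 to 0.00574) in control and 0.00753 (0.00302 to 0.0156) in DCHP sperm, and 0.0137 (0.00587 to 0.0271) in control sperm without traditional control replicate 2. Mir143 had log2 fold changes of -8.86 and -6.96 (adjusted p = 4.08e-06 and 2.72e-05 by edgeR). Mir145a turned from higher to lower, at -6.79 and -6.68. No p is given for it, since it met the filter on low counts only through the traditional libraries, the higher group on this scale. The median of all tested hairpins was -6.14 and -6.03 on that scale.

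Whether the effect of DCHP differed between methods was tested as an interaction over 426 hairpins, of which 0% were called (11 had an unadjusted p below 0.05, and DESeq2 called 0). Mir143 had an interaction of 1.07 on the log2 scale (SE 0.639, adjusted p = 0.9998 by edgeR) and Mir145a one of -0.17 (SE 0.772, adjusted p = 0.9998). The other 4 genes reached 10 reads in no PANDORA-seq library and were given no estimate.

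Read lengths and arms were like those of mature miRNAs for most of the genes. In traditional RNA-seq, 85.2% of the Mir451a reads, 77.6% of the Mir223 reads, 87.8% of the Mir143 reads and 88.4% of the Mir145a reads were 20 to 24 nt long, against 29.2% for Mir144 and 46.1% for Mir142. Almost all Mir451a reads of that window were on the 5p side (99.95%), and almost all Mir143 reads on the 3p side (99.9%). Mir145a reads were 73.4% 5p, from 58.0% to 80.0% by library, Mir144 reads 89.2% 5p and Mir142 reads 52.5% 5p. For Mir223 43.8% were 5p, from 16% to 66.7% by library.

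The PANDORA-seq reads of Mir223 had another length profile. Of 17 reads, 11 were 25 nt or longer (64.7%), against 12.7% of 844 in traditional RNA-seq. The most frequent of them was a 33 nt read of the 5p arm, with 3 reads in 2 libraries. It begins a base before the annotated start and runs 9 bases past the annotated end into the loop. Its stretch in capitals, CGTGTAT, is therefore not the seed of miR-223-5p. It is shown because a 20 to 24 nt count leaves such reads out.
Mir223 5p and loop, 33 nt: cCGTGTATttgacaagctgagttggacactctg
For Mir143, 85.2% of the PANDORA-seq reads were of 20 to 24 nt and 98.9% began at the main start of traditional RNA-seq, where 98.8% did. In the traditional libraries the 25 nt form made up 3.45% to 15.5% of the Mir451a reads at the mature start.

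**Figure D4:**
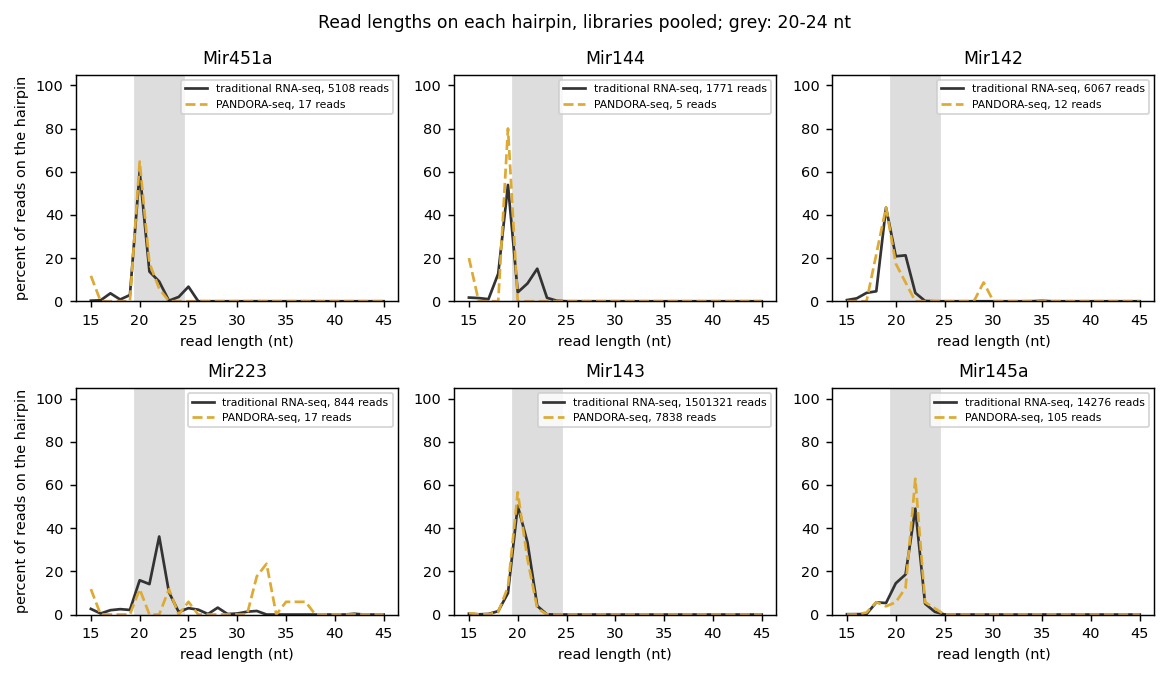
Percent of the reads on each hairpin (vertical axis) by read length in nt (horizontal axis), with the libraries of a method pooled; the grey band is 20 to 24 nt. Mir144 and Mir142 peak at 19 nt, outside the band, and the 17 PANDORA-seq reads of Mir223 peak beyond 30 nt.

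Fragments of marker mRNAs, reads of 25 to 45 nt that matched exactly, gave a second measure of other cells, per 1000000 total reads. Haemoglobin fragments (Hba-a1, Hba-a2, Hbb-bs and Hbb-bt) ranged from 1.25 to 7.11 in traditional controls and from 1.95 to 3.88 in traditional DCHP libraries, and from 66.7 to 119 and 63.2 to 113 in PANDORA-seq. The 2 controls highest in Mir451a per miRNA read, replicates 1 and 2, held 2.06 and 1.25, the lowest of the traditional controls. Traditional control replicate 3 was instead the highest for fragments of haemoglobin, of white blood cell mRNAs (12.1 against at most 5.47 in the other controls) and of smooth muscle mRNAs (23.96 against at most 9.73), and it was also the highest in Mir143. Other libraries went the other way. DCHP replicate 5 was highest in Mir143 in PANDORA-seq and among the highest in traditional RNA-seq. Yet it was lowest in smooth muscle mRNA fragments in both methods, at 18.3 and 1.55. PANDORA-seq DCHP replicate 1, the lowest DCHP library of that method in Mir143, was highest in these fragments, at 32.9.

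Smooth muscle mRNA fragments (Acta2, Myh11, Tagln and Des) had a median of 7.05 (range 2.15 to 23.96) per 1000000 total reads in traditional controls and 3.23 (1.55 to 5.598) in traditional DCHP libraries, and without control replicate 3 the controls reached 9.73. In PANDORA-seq the medians were 25.5 (20.3 to 30.6) in controls and 20.5 (18.3 to 32.9) in DCHP libraries. Those of white blood cell mRNAs (Ptprc, Lyz2, S100a8 and S100a9) had medians of 2.03 (0.825 to 12.1) and 2.28 (0.896 to 3.47) in traditional control and DCHP libraries and of 9.66 (7.80 to 11.9) and 12.5 (7.97 to 14.6) in PANDORA-seq. Lyz2, the lysozyme of macrophages and other myeloid cells, gave most of these reads, 846 in traditional controls beside 64 of Ptprc, 8 of S100a8 and 6 of S100a9, and it alone was at 10.98 in the highest control. Control and DCHP ranges overlapped for each list in each method, and the differences by exposure were not tested. Fragments of sperm mRNAs (Prm1, Prm2, Tnp1, Tnp2, Akap4 and Odf1) were present throughout, at 84.2 to 182 in PANDORA-seq and 39.3 to 82.7 in traditional RNA-seq. They did not shift alike between methods. In controls, the median of Odf1 was 20.2 in traditional RNA-seq and 71.0 in PANDORA-seq, while that of Tnp2 alone was lower in PANDORA-seq (5.46 and 3.79). Odf1 gave most of these fragments in PANDORA-seq, so ratios to their sum rest largely on it there.

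Per sperm mRNA fragment, haemoglobin had a median of 0.639 and 0.551 in PANDORA-seq control and DCHP libraries and of 0.0618 and 0.0555 in traditional libraries, with no overlap between methods. For the other lists the methods overlapped in controls. Smooth muscle had medians of 0.208 (0.164 to 0.293) in PANDORA-seq controls and 0.179 (0.0297 to 0.458) in traditional controls, and white blood cells of 0.0860 (0.0539 to 0.112) and 0.0516 (0.0154 to 0.231). In DCHP libraries smooth muscle was at 0.208 (0.1002 to 0.243) against 0.0614 (0.0187 to 0.0858), and white blood cells at 0.0947 (0.0802 to 0.106) against 0.0381 (0.0108 to 0.0632). Per total read, haemoglobin fragments were thus higher in PANDORA-seq, where the reads of Mir451a were lower. What the enzyme treatment does to either class was not tested, and fewer cells of a type cannot be told apart from less RNA per cell.

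**Figure D5:**
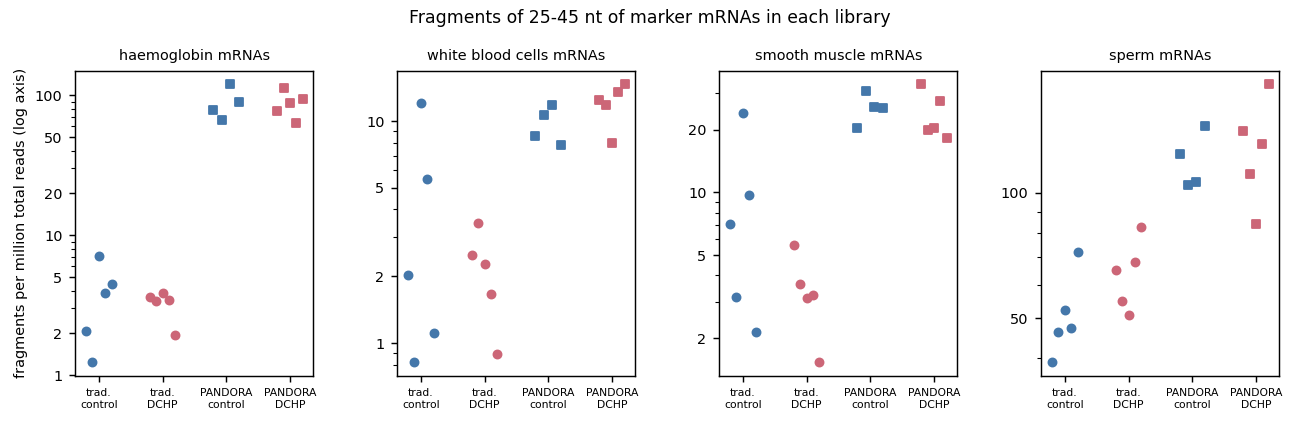
Fragments of marker mRNAs per 1000000 total reads (log axis) in each library, by method (circles traditional, squares PANDORA-seq) and exposure (blue control, red DCHP). Haemoglobin fragments are at 63.2 to 119 in PANDORA-seq and at 1.25 to 7.11 in traditional RNA-seq.

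Among wider marker lists, the red blood cell list (Mir451a, Mir144, and the overlapping Mir486 and Mir3107, whose reads cannot be told apart) had 0 of 4 tested hairpins called for DCHP in traditional RNA-seq, with a median log2 fold change of -0.51 beside 0.17 over all hairpins. That median includes Mir451a and Mir144, whose values below 0 rested on control replicates 1 and 2. Between methods, Mir486 and Mir3107 were called higher in PANDORA-seq in both control (log2 fold change 2.07 and 2.04) and DCHP sperm (1.57 and 1.61). Of all hairpins, 44.9% and 42.7% were called higher in these comparisons, with medians of 1.096 and 0.79. Most of those called higher had Gm names. In the heart and skeletal muscle list, Mir1a-1 and Mir1a-2, which gave identical values, were called lower in PANDORA-seq in control (log2 fold change -1.67 for both) and DCHP sperm (-1.97 for both), where 4.96% and 1.22% of all hairpins were called lower. The whole list held only 3 to 31 reads per PANDORA-seq control and 10 to 60 per PANDORA-seq DCHP library. Both hairpins thus met the filter on low counts only through the traditional libraries, and their calls are not read as a result. In the lists of endothelium, liver, male germ cells and epithelium, 0 hairpins were called between methods. The white blood cell list had 0 of 6 called for DCHP in traditional RNA-seq (median 0.16). In PANDORA-seq 1 of its hairpins was tested and not called, Mir146b, with a log2 fold change of 2.53 (SE 0.728, adjusted p = 0.149 by edgeR) and the lowest p of the 180 hairpins. The whole list summed to 9296 RPM in DCHP replicate 5, against at most 1977 RPM in the other PANDORA-seq libraries. The part of that library in the Mir146b value was not tested. In the smooth muscle list, Mir145b was not tested and 0 of 2 were called for DCHP in either method. The lists of heart and skeletal muscle (0 of 5), endothelium (0 of 1), liver (0 of 1), male germ cells (0 of 3) and epithelium (0 of 5) had no call for DCHP in traditional RNA-seq either, with medians of 0.62, -1.53, -0.88, 0.84 and 1.18. The values of endothelium and liver rested on control replicates 1 and 2, the highest in both. The other controls held 323 to 812 RPM of endothelium and 19284 to 44759 RPM of liver. DCHP libraries held 437 to 1767 and 13794 to 215635 RPM. In PANDORA-seq there was also no call for DCHP in the lists of red blood cells (0 of 2, median -0.53), endothelium (0 of 1, -1.53), liver (0 of 1, -0.27), male germ cells (0 of 2, 0.67) and epithelium (0 of 3, 1.12), beside 0.024 over all hairpins, and no hairpin of heart and skeletal muscle was tested. The endothelium value rested on control replicate 2, at 5595 RPM. The other PANDORA-seq controls held 198 to 860 RPM and the DCHP libraries 240 to 940 RPM.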

How the data were processed

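Small RNA of 15 to 50 nt from cauda sperm was sequenced in 19 libraries. For each library the authors deposited the counts of every distinct cleaned read of 15 to 45 nt, without normalization or annotation, and the labels name mm10 as the genome build. The settings of read cleaning are not given in the sources used here. The members and lists were chosen with earlier results of these data known.

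From these counts, reads of 20 to 24 nt were matched to 2198 hairpins of GENCODE M21 (GRCm38, sense strand, at most 1 mismatch, best matches divided equally), leaving out 4 that hold a tRNA locus. Hairpins with at least 10 reads in as many libraries as the smaller group were tested with edgeR 4.0.16 (R 4.3.3) on rounded counts, with the miRNA reads as library size and Benjamini-Hochberg adjustment over all hairpins tested. A member with 10 reads in no library of a group was given no fitted fold change, a limit set after the counts were seen, and pooled reads were compared by an exact conditional interval instead. Correlations used 100000 resamples, or all permutations for 9 libraries. The genes named are the 6 members and, for each, the 3 hairpins of highest r among those with a mean of at least 100 RPM. The 34 listed marker hairpins were matched by symbol or RefSeq synonym. The counting error of the miRNA total is 0.0350% to 0.102% per traditional and 0.462% to 1.31% per PANDORA-seq library. Tested on simulated counts with 4-fold changes, edgeR recovered 72.2% (36 of 180 hairpins changed), 93.6% (78 of 393), 63.2% (68 of 343) and 87.5% (64 of 328), in the order DCHP in PANDORA-seq, DCHP in traditional RNA-seq, method in control and method in DCHP. Of its calls 7.14%, 8.75%, 4.44% and 5.08% were false. All hairpins of a comparison were simulated with a common dispersion (0.258, 0.264, 0.314 and 0.197). The recovery therefore does not hold for genes of wider spread, such as Mir451a and Mir142 in traditional controls. No 2 libraries of a group were alike within counting error (36 pairs, smallest chi-square per degree of freedom 9.94). Alternatives were TMM factors, DESeq2 1.42.0, other denominators, no filter, exact or unique matches, all lengths, a replicate block, leaving out libraries and exact permutation tests.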

Additional observations from a re-analysis of the deposited data

Results flagged for a closer look

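Of 37 sets of member levels or mRNA fragment levels in a group of 4 or 5 libraries, 5 held a library that stood far from the others by Dixon's test. The test's chance rate of about 1 in 20 is for continuous values and does not hold for counts of a few reads. The 5 of 37 were therefore not set against it. For 4 of the 5, the library was the highest of its PANDORA-seq group in 1 of the 6 miRNAs. Mir145a in PANDORA-seq control replicate 2 was at 1837 RPM, from 22 reads, while the other 3 controls lay at 247 to 516 RPM. Mir451a in PANDORA-seq DCHP replicate 3 was at 282 RPM, from 3 reads, while the other 4 libraries lay at 0 to 64.0 RPM. DCHP replicate 5, at 64.0 RPM, also had 3 reads, from a larger miRNA total. Mir142 was at 167 RPM in PANDORA-seq control replicate 2, from 2 reads, and at 72.3 RPM in DCHP replicate 2, from 1 read, with 0 reads in the other libraries of both groups. A single library with reads among libraries with 0 is flagged whatever its count. Haemoglobin mRNA fragments in traditional DCHP replicate 5 were at 1.95 per 1000000 total reads, while the other 4 DCHP libraries lay at 3.38 to 3.88.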

How the results depend on the processing

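Over the alternatives other than leaving out 1 library, 149 values of the 6 genes and their correlations kept their direction and side of the threshold, 24 took the opposite sign and 4, all of Mir143 between methods in DCHP sperm, kept their sign and passed the threshold only under the alternative (-3.80, -3.07, -6.96 and -4.33 with the 4 scalings named next). Between methods, both scaling and the filter moved the counts. With TMM factors, DESeq2, total reads or hairpin reads of any length, 328, 308, 260 and 324 hairpins were called in control sperm (171 as reported) and 322, 314, 252 and 309 in DCHP sperm (144 as reported). Calls higher against lower went from 154 and 17 to 109 and 219, 107 and 201, 9 and 251, and 97 and 227 in control sperm, and from 140 and 4 to 114 and 208, 118 and 196, 10 and 242, and 100 and 209 in DCHP sperm, as the median log2 value moved to between -6.14 and -1.89. Under the same 4 settings Mir145a was at -3.34, -3.97, -6.79 and -3.97 in control and -3.28, -2.39, -6.68 and -4.08 in DCHP sperm. These 8 values are among the 24 with the opposite sign and passed the threshold. Mir145a met the filter on low counts between methods only through the traditional libraries, the higher group under these scalings. Its passing is therefore not read as a result, and no p is given. Without a filter 531 and 465 hairpins were called, with reads on 1 hairpin only 72 and 46, and with reads of 15 to 45 nt 341 and 311, from other numbers of hairpins tested.

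For DCHP in traditional RNA-seq, TMM factors and DESeq2 gave Mir143 -0.18 and -0.12 and Mir145a -0.39 and -0.35, and total reads gave Mir145a -0.19. Exact matches called 1 hairpin, and no filter called 1 in PANDORA-seq. Without traditional controls 1 and 2, chosen after seeing the data, Mir451a was at 0.57, Mir144 at 0.67, Mir142 at 1.18, Mir143 at -0.14 and Mir145a at -0.080. The interaction of Mir145a was 0.64, 0.52 and 0.11 with TMM factors, DESeq2 and total reads. The r without the 2 farthest libraries was 0.040 for Mir451a and Mir223, 0.21 for Mir451a and Mir145a and -0.39 for Mir144 and Mir145a.

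Leaving out 1 library at a time gave 0 to 2 calls for DCHP in PANDORA-seq, 151 to 201 between methods in control and 144 to 155 in DCHP sperm, and 0 for the others. Mir142 for DCHP in traditional RNA-seq ranged from -1.43 to 0.039. Mir145a ranged from -0.42 to 0.95 for DCHP in PANDORA-seq (6 fits held it), from -0.073 to 0.21 in traditional RNA-seq, from -0.37 to 1.03 and -0.076 to 0.77 between methods and from -0.76 to 0.89 for the interaction. Between methods in DCHP sperm Mir143 ranged from -1.01 to -0.26. The cause of these shifts was not tested.

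Replicate numbers are shared between groups. The study ran sperm RNA by both methods, but neither it nor the labels say that libraries of the same number hold the same RNA. Same-numbered libraries of the 2 methods correlated in their deviations at -0.030 to 0.54, above 0.1 in 7 of 9 pairs, and 4 of 9 correlated best with their own number, as a hint from the data. Mir122 was highest in replicate 2 of each of the 4 groups. Within a method the correlations were -0.34 to 0.32. Since not every pair passed 0.1, the block was kept as an alternative. With a replicate block, 0, 0, 183, 145 and 0 hairpins were called for DCHP in PANDORA-seq and traditional RNA-seq, method in control and DCHP sperm and the interaction. Mir143 between methods was then at -1.50 in control (adjusted p = 0.000196 by edgeR) and -0.69 in DCHP sperm (adjusted p = 0.0936), and the block changed no call of the 6 genes. PANDORA-seq depth limits the blood cell genes most, with 0 to 5 reads per library.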
